A study of Mus musculus with 3 samples.

Results

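Gene deserts are long stretches of chromosome without protein-coding genes, and the H3K4me1 peaks that lie deep inside them were examined here. H3K4me1, the monomethylated form of lysine 4 on histone H3, was mapped by ChIP-seq in primary adipocytes. The adipocytes came from males of the C57BL/6J strain. The mice carried an adipocyte-specific knockout of Lonp1 (AKO), which encodes a protease of the mitochondrial matrix, or were their wild-type controls (WT), with 1 library each. A single input library from cells labelled as wild type served as background for both peak lists. The promoter driving the recombinase, the fat depot, the age and the number of animals behind each library are not given in the sources used here. A peak was counted as a gene-desert peak when its midpoint lay more than 100 kb from every protein-coding gene body of the RefSeq annotation of GRCm38.p6, the assembly known as mm10, on chromosomes 1 to 19. This rule took 3232 of 62194 AKO peaks and 3602 of 71642 WT peaks. Peaks of the libraries that overlapped were merged, which gave 4821 gene-desert regions of 83937 regions in all.

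H3K4me1 marks enhancers, the stretches of DNA that raise transcription of genes they contact, and it is found on poised as well as active ones. Enhancers can act over long distances, and gene deserts beside developmental transcription factors are known to hold arrays of them. Deserts also carry long non-coding RNAs (lncRNAs) and microRNAs, short RNAs that recognise their targets mainly through the seed near their 5′ end.

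With 1 library per genotype, no difference between AKO and WT could be tested, and every comparison below is between these libraries. Tags kept after removal of duplicates numbered 14733950 in the AKO library, 15015805 in the WT library and 9537585 in the input. Peak heights are given as fragments at the summit, the authors' pileup with the scaling to the input undone. Intervals are 95% Wilson intervals and cover counting error alone. All 8 adipocyte markers checked, Pparg and Adipoq among them, had a peak within 10 kb of the gene body in both libraries, with 14 to 42 fragments at their highest summit in AKO and 18 to 48 in WT. All 4 endothelial markers, 3 of 4 skeletal muscle markers (not Myod1) and 2 of 5 macrophage markers (Cd68 and Csf1r, not Adgre1, Mrc1 or Ptprc) also had a peak in both libraries, and the part of other cell types in the results was not tested.

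Of 100 microRNA hairpins that lie in gene deserts, 5 overlapped a gene-desert region and 22 had one within 10 kb. These are not separate sites, since several of the 22 were counted through 1 region (chr12:109747827-109750393) in the microRNA array between Rtl1 and Dio3. How often other desert positions lie so near a region was not measured. Mature sequences of hairpins in or beside the regions described below are shown with the seed, bases 2 to 8, in capitals. They were taken from RefSeq with positions on GRCm38.p6.
mmu-miR-100-5p: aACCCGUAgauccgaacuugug
mmu-miR-125b-5p: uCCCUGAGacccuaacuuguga
mmu-miR-29a-3p: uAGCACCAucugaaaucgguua
mmu-miR-29b-3p: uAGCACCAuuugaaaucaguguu
mmu-miR-802-5p: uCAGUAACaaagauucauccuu
mmu-miR-137-3p: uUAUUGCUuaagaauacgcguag
The miR-29a-3p and miR-29b-3p sequences share 1 seed, and the other 4 seeds are all different. The Mir100 hairpin (chr9:41531425-41531504, + strand) lay inside a shared region with 22 fragments at the summit in AKO and 17 in WT. The Mir125b-1 hairpin (chr9:41581926-41582002, + strand) lay 3163 bp from a shared region with 18 fragments in AKO and 16 in WT. Both hairpins lie in the lncRNA gene Mir100hg, and both of these regions were slightly taller in AKO. The Mir29a hairpin (chr6:31062660-31062747, − strand) and the Mir29b-1 hairpin (chr6:31063023-31063093, − strand) lay 2102 and 2311 bp from different AKO-only regions, each with 17 fragments. The Mir802 hairpin (chr16:93369720-93369816, + strand) lay in a shared region with 21 fragments in AKO and 24 in WT. The Mir137 hairpin (chr3:118433857-118433929, + strand) overlapped a WT-only region with 26 fragments, which makes it the only one of the 5 overlapped hairpins at a region called in a single library.

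Promoter windows, 250 bases before to 50 bases after the start of a RefSeq gene, were also compared with the regions. Of 1704 annotated genes with a promoter window in a desert, 122 had one under a gene-desert region. That region was shared for 67 of them (54.9%), AKO only for 11 (9.02%) and WT only for 44 (36.1%), against 37.2%, 26.9% and 35.9% of all gene-desert regions. The first shares count genes and the second count regions, and 1 region can lie under the windows of several genes. Shared regions also join peaks of both libraries, and a wider region meets a window more readily. The difference was not tested. Windows under a region had a median GC content of 51.5%, against 44.3% for desert windows with no region and 52.7% for all promoter windows on chromosomes 1 to 19. They held a median of 5 CpG dinucleotides, against 3 in the desert windows with no region and 7 in all windows. The desert promoters under a region were thus nearer in base composition to promoters in general. The windows with the tallest shared region in 4 of the 10 most populated deserts are printed, each on its own strand, with motif matches in capitals. The motifs searched, on both strands, were the CCAAT box (CCAAT), the NFI-type motif TTGGCA, the nuclear-receptor core AGGTCA, the AP-1 site TGANTCA, the C/EBP-type site TTGCNNAA and the EBF site.
Gm36154 promoter (chr2:128466466-128466765, GRCm38.p6, − strand): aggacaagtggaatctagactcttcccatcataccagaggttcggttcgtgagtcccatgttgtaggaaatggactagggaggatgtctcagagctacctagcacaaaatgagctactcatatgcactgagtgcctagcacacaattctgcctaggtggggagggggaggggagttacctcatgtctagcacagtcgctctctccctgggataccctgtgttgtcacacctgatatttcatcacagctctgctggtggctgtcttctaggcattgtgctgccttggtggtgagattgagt
Gm33041 promoter (chr13:52222618-52222917, GRCm38.p6, + strand): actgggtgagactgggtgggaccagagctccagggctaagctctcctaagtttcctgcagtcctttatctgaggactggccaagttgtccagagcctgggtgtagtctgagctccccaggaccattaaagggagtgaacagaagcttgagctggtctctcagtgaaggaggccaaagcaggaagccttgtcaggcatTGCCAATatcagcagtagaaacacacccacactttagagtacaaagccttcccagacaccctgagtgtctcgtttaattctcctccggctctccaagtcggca
Mir100hg promoter (chr9:41376276-41376575, GRCm38.p6, + strand): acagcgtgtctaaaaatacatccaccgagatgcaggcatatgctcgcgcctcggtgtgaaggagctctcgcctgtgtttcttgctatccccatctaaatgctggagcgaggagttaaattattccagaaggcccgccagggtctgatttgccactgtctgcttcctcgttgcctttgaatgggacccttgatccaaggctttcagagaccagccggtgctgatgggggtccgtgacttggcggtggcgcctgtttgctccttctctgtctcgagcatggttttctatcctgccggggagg
C130026L21Rik promoter (chr5:111581311-111581610, GRCm38.p6, + strand): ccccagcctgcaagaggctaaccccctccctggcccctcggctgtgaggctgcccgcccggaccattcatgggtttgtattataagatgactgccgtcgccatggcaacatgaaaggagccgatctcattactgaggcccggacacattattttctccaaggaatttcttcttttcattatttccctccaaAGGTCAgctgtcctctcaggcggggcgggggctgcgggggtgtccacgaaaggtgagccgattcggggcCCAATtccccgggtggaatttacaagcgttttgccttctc
The window of Gm36154, in the desert beside Bcl2l11, lay under a region with 29 fragments in AKO and 30 in WT and held none of these motifs. The window of Gm33041, in the desert beside Gadd45g, lay under a region with 27 fragments in AKO and 30 in WT, and its CCAAT box overlaps the NFI-type motif, which is on the opposite strand. The Mir100hg window held 15 CpG dinucleotides and no match, under a region with 19 fragments in AKO and 28 in WT. The window of C130026L21Rik, in the desert beside Mn1, also held 15 CpG dinucleotides, and its region had 18 fragments in AKO and 28 in WT. A CCAAT box was present in 36.1% of windows under a gene-desert region, against 39.7% of desert windows with no region and 37.7% of all windows. The NFI-type motif was present in 23.8%, 18.8% and 14.3% of these sets, and AGGTCA in 21.3%, 18.96% and 16.2%. The AP-1 site was present in 10.7%, 10.4% and 7.97%, the C/EBP-type site in 10.7%, 16.1% and 10.9%, and the EBF site in 0%, 0.816% and 0.917%. These matches describe letters in a window and were not tested.

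Gene-desert peaks made up 5.20% of the AKO peaks on chromosomes 1 to 19 (5.03 to 5.37%) and 5.03% of the WT peaks (4.87 to 5.19%). The territory that the rule covers was 679.7 Mb, or 28.0% of the 2429.5 Mb spanned. Peaks were therefore sparse there, at 4.75 peaks per Mb in AKO and 5.30 in WT, against 33.7 peaks per Mb in AKO and 38.9 in WT over the rest of the span. Chromosome 13 had the highest share of gene-desert peaks, with 12.9% of its AKO peaks and 13.5% of its WT peaks. The lowest shares were on chromosome 7 in AKO (1.93%) and on chromosome 19 in WT (1.77%). AKO had fewer gene-desert peaks than WT, with an AKO to WT ratio of 0.897, against 0.867 for the other peaks. The covered length was 1700.4 kb in AKO and 2153.9 kb in WT, a ratio of 0.789, against 0.736 for the other peaks. In bulk samples such as these, fewer cells of a type and less mark per cell cannot be told apart. When both lists were reduced to the same number of strongest peaks the number ratio in deserts became 1.07. Among peaks whose −log10 q was 5 or more it was 0.479, and the share of desert peaks was then lower in AKO (3.23%) than in WT (3.94%).

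Desert peaks were small. The median was 16 fragments in AKO and 18 in WT, against 18 and 20 for the other peaks of AKO and WT. The highest desert summits had 46 fragments in AKO and 55 in WT, and the lowest summit was 10 in either library. The median width was 429 bp in AKO and 461 bp in WT, against 518 and 574 bp for the other peaks, and the median fold enrichment over background, the authors' value, was 4.50 in AKO and 4.62 in WT. The desert peaks were thus narrower and lower than the others in both libraries.

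In both libraries a smaller share of desert peaks than of other peaks had a partner in the other library. Of the AKO desert peaks, 1935, or 59.9% (58.2 to 61.5%), overlapped a WT peak by at least 1 bp, against 77.1% of the other AKO peaks (76.8 to 77.4%). Of the WT desert peaks, 1873, or 52.0% (50.4 to 53.6%), overlapped an AKO peak, against 61.1% of the other WT peaks (60.7 to 61.4%). These intervals do not overlap, but neighbouring peaks are not independent and the difference was not tested. Within the deserts sharing was lower at greater distance from genes. Among AKO peaks it was 77.6% inside genes, 78.8% at 0 to 10 kb, 74.6% at 10 to 50 kb and 70.6% at 50 to 100 kb, and in the deserts it was 65.0% at 100 to 200 kb, 53.9% at 200 to 500 kb and 37.3% beyond 500 kb. Among WT peaks it was 63.3% inside genes and nearly level from there to the desert limit, with 54.8% at 0 to 10 kb, 55.7% at 10 to 50 kb and 55.9% at 50 to 100 kb, and in the deserts it was 54.0% at 100 to 200 kb, 48.9% at 200 to 500 kb and 44.8% beyond 500 kb. The ratio of AKO to WT peak numbers was 0.898 inside genes, 0.768 at 0 to 10 kb, 0.790 at 10 to 50 kb and 0.834 at 50 to 100 kb. In the deserts it was higher at greater distance, at 0.864 (0.814 to 0.918) at 100 to 200 kb from 1971 AKO and 2281 WT peaks, 0.926 (0.854 to 1.005) at 200 to 500 kb from 1108 and 1196, and 1.22 (0.967 to 1.55) beyond 500 kb from 153 and 125. The last ratio was 1.38 with equal numbers of strongest peaks, 0.969 for peaks enriched at least 4-fold and 0.432 (19 AKO and 44 WT peaks) with a −log10 q of at least 5, so AKO peaks were not in excess beyond 500 kb at the stricter thresholds. The values on either side of the 100 kb limit were close. Sharing was 67.7% for the 310 AKO peaks at 100 to 110 kb and 67.0% for the 358 at 90 to 100 kb, and it was 52.6% for the 365 WT peaks at 100 to 110 kb and 56.7% for the 406 at 90 to 100 kb.

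**Figure D1:**
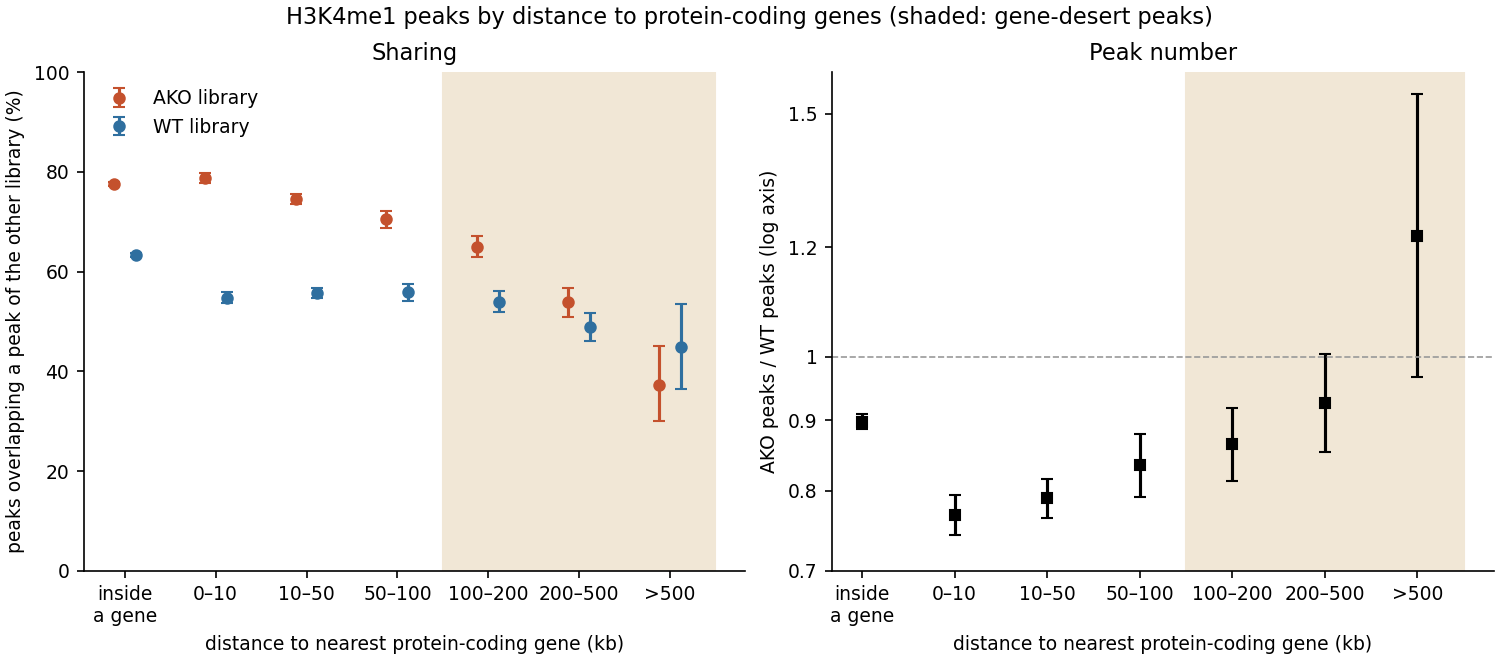
The left panel plots the percentage of AKO and of WT peaks that overlap a peak of the other library in each class of distance to the nearest protein-coding gene, and the right panel the ratio of AKO to WT peak numbers on a log axis; bars are 95% intervals for counting error and shading marks gene-desert peaks. In the shaded classes AKO sharing runs from 65.0% to 37.3% with distance while the number ratio runs from 0.864 to 1.22.

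Sharing was also compared at matched height. Among AKO peaks of 15 to 19 fragments, 59.4% of desert peaks had a WT partner, against 72.8% of other peaks, and among those of 20 to 24 fragments the shares were 82.3% and 90.8%. All 11 AKO desert peaks of 35 fragments or more had a partner, as did all 1182 other AKO peaks of that height. In the WT library the matched shares were closer, at 42.6% of desert and 46.1% of other peaks of 15 to 19 fragments and 63.9% and 66.0% of those of 20 to 24. At 10 to 14 fragments the WT order was the opposite, with 34.4% for desert and 32.4% for other peaks.

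**Figure D2:**
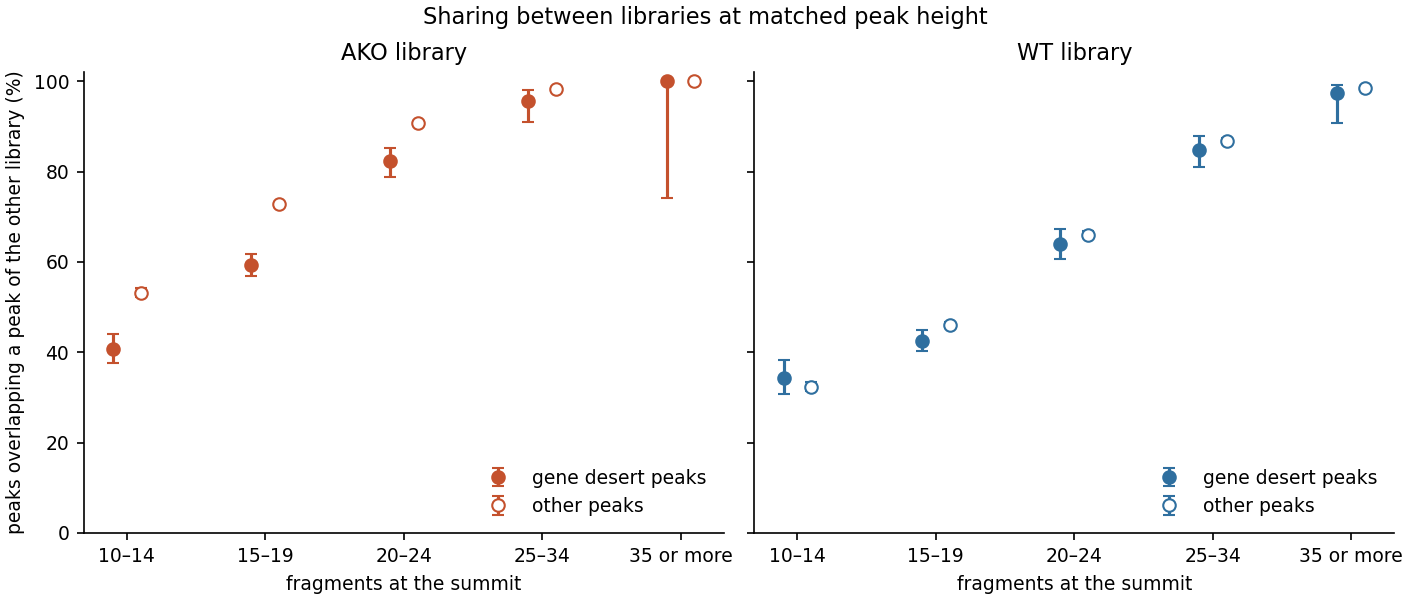
Percentage of peaks overlapping a peak of the other library by class of fragments at the summit, for gene-desert peaks (filled) and other peaks (open) in the AKO and WT libraries; bars are 95% Wilson intervals. Sharing was higher in taller peaks, and AKO desert peaks of 10 to 24 fragments lie below other AKO peaks of the same height.

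After merging, 1297 of the 4821 gene-desert regions were AKO only (26.9%), 1729 were WT only (35.9%) and 1795 were shared (37.2%). Over all regions on chromosomes 1 to 19, 17.6% were AKO only, 33.6% WT only and 48.8% shared. The desert regions thus differed from the whole mainly in a larger AKO-only share at the expense of shared regions. With equal numbers of strongest peaks the AKO-only desert regions (1479) outnumbered the WT-only ones (1348), and with a −log10 q of at least 5 they were 249 against 988. A region called in a single library is one that missed the authors' threshold in the other, not one without the mark there. The AKO-only regions had a median of 15 fragments and at most 30, and 92.1% of them had fewer than 20. The WT-only regions had a median of 17 and at most 39, and 79.4% had fewer than 20. A WT peak lay within 1 kb of 287 AKO-only regions (22.1%), and an AKO peak within 1 kb of 426 WT-only regions (24.6%). At the other end, 274 AKO-only regions (21.1%) had no WT peak within 100 kb, against 216 WT-only regions (12.49%) with no AKO peak within 100 kb. Outside the deserts the medians were also 15 fragments for AKO-only and 17 for WT-only regions. The shares under 20 fragments and by distance to the other library were not measured there. Peaks are sparser in deserts, so these shares are not read as particular to desert regions.

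In the 1795 shared desert regions the pileup was lower in AKO. The median was 17 fragments in AKO and 20 in WT, and the median AKO to WT pileup ratio was 0.902 (quartiles 0.765 and 1.07), against 0.858 over all shared regions. The AKO value was the lower one in 1165 regions, or 64.9%, against 71.8% of all shared regions. A fold of 1.5 was passed downwards in 218 desert regions (12.1%) and upwards in 39 (2.17%), against 15.6% and 1.47% of all shared regions. Relative to the median ratio of all shared regions, an adjustment chosen after seeing the data, the desert median became 1.05. The calls then numbered 66 lower (3.68%) and 133 higher (7.41%), against 5.15% and 5.73% overall. The ratio moved with height in deserts as elsewhere. It was 0.951 in desert and other regions of up to 30 summed fragments, 0.922 and 0.917 at 31 to 40, 0.856 and 0.842 at 41 to 50, and 0.779 and 0.771 above 50, so desert and other regions of like height differed little. A shared region must be called in both libraries, and no summit had fewer than 10 fragments. The ratio can therefore stray less from 1 in low regions than in tall ones. How much of the trend with height comes from this limit was not tested.

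The regions were unevenly spread over the deserts. Of 1393 stretches over 200 kb between neighbouring protein-coding genes, 718 held a gene-desert region and 675 held none. Peaks of both libraries occurred in 517 of the 719 deserts with a region, chromosome ends included, AKO peaks alone in 103 and WT peaks alone in 99. The 159 deserts with at least 10 regions held 3118 regions, or 64.7%, and 188 deserts had 1 region. Among the 85 deserts with at least 10 regions called in a single library, 22 had more AKO-only regions, 56 more WT-only regions and 7 equal numbers. With equal numbers of strongest peaks these were 36, 34 and 10 of 80 deserts, and with a −log10 q of at least 5 all 18 such deserts had more WT-only regions.

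The 10 deserts with the most regions held 548 of them, of which 105 were AKO only, 184 WT only and 259 shared (47.3%). The desert between Rps24, a ribosomal protein gene, and Zmiz1, a transcriptional coregulator, led with 83 regions on chromosome 14. It had 7 AKO-only and 35 WT-only regions, and peaks covered 38.2 kb in AKO and 59.5 kb in WT. Next came 72 regions between Mn1, a transcriptional coregulator, and Cryba4, a lens crystallin, on chromosome 5, with 8 AKO-only and 26 WT-only regions and a covered length of 34.9 kb in AKO and 56.8 kb in WT. Both of these deserts thus carried less H3K4me1 territory in AKO, with AKO to WT length ratios of 0.642 and 0.614, against 0.789 for all desert peaks. The desert beside Runx1, a transcription factor of blood and skeletal development, had the lowest ratio of the 10, at 0.551, with 8 AKO-only and 27 WT-only regions. Between Gadd45g, a stress-induced growth-arrest gene, and Diras2, a Ras-like GTPase, 3 regions were AKO only and 19 WT only. The deserts beside Plpp3, a lipid phosphatase, and beside Bcl2l11, which encodes the pro-apoptotic protein BIM, had 10 AKO-only and 22 WT-only regions and 9 AKO-only and 17 WT-only regions. The difference between AKO-only and WT-only numbers kept its sign under all 7 other settings tried for the Rps24, Mn1, Gadd45g, Plpp3 and Runx1 deserts, and under 6 for the Bcl2l11 desert, with 1 tie.

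The other 4 of these deserts were balanced or went the opposite way. Between Myc, the growth-promoting transcription factor, and Gsdmc, a gasdermin, 18 regions were AKO only and 16 WT only, with 23.1 kb covered in AKO and 25.4 kb in WT. Between Enc1, a kelch-family protein, and Arhgef28, 10 regions were AKO only and 11 WT only. The desert between Klf14, an imprinted transcription factor linked in humans to adipose gene expression, and Mkln1, which encodes muskelin, had 13 AKO-only and 7 WT-only regions. Its covered length was nearly equal, at 38.8 kb in AKO and 39.9 kb in WT. The desert between Ubash3b, a phosphatase-like signalling regulator, and Gm40514, a predicted gene, was the only one of the 10 with more covered length in AKO, 18.2 kb against 11.1 kb in WT, and it had 19 AKO-only and 4 WT-only regions. With a −log10 q of at least 5 its order was the opposite, with 5 AKO-only and 8 WT-only regions. The order also turned at this threshold in the Klf14 desert, to 5 AKO-only and 16 WT-only regions, and in the Myc desert, to 4 and 6. In the Enc1 desert it turned above 200 kb, with 8 AKO-only and 7 WT-only regions, and with equal numbers of strongest peaks, with 12 and 9. The sign held under 6 of the 7 other settings for the Ubash3b desert, under 5 for the Myc and Klf14 deserts, with 1 tie each, and under 4 for the Enc1 desert, with 1 tie.

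**Figure D3:**
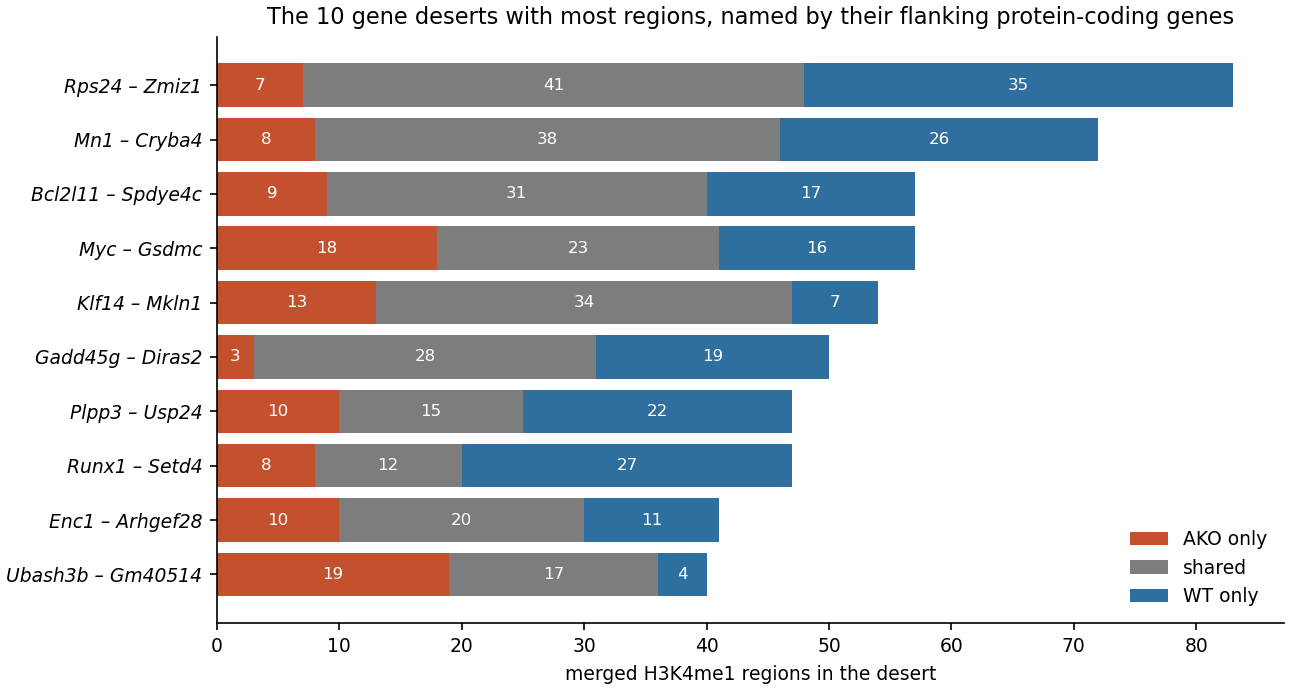
Numbers of merged H3K4me1 regions in the 10 deserts with the most regions, split into AKO only, shared and WT only, and named by their flanking protein-coding genes. The Rps24 desert has 7 AKO-only and 35 WT-only regions, while the Ubash3b desert has 19 AKO-only and 4 WT-only regions.

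Part of this signal lay inside lncRNA genes. Of all gene-desert regions, 1284 (26.6%) had their midpoint in an annotated lncRNA, with 22.3% of AKO-only, 26.6% of WT-only and 29.8% of shared regions. The share of desert territory inside lncRNA genes was not measured, so no enrichment can be read from these values. Morrbid, a lncRNA known in mouse myeloid cells to repress Bcl2l11, held 41 of the 57 regions of its desert, with 23.9 kb covered in AKO and 32.2 kb in WT. Pvt1, a lncRNA beside Myc, held 39 regions with 16.5 kb covered in AKO and 20.7 kb in WT. Pvt1 begins 47.6 kb from Myc, and its part within 100 kb of Myc is outside the rule and not counted. Lncpint, a p53-induced lncRNA, held 37 of the 54 regions beside Klf14, with 21.6 kb in AKO and 22.6 kb in WT. Mir100hg, the host of Mirlet7a-2 and of Mir100 and Mir125b-1 introduced above, held 25 regions with 13.0 kb in AKO and 7.84 kb in WT. Among these it was the one with more covered length in AKO, and it held 11 AKO-only and 2 WT-only regions. Its tallest AKO summit had 35 fragments, where the overlapping WT peak had 20, at a region 3552 bp from the Mirlet7a-2 hairpin. The regions that were more than 100 kb from any annotated gene, coding or not, numbered 443 (9.19%).

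**Figure D4:**
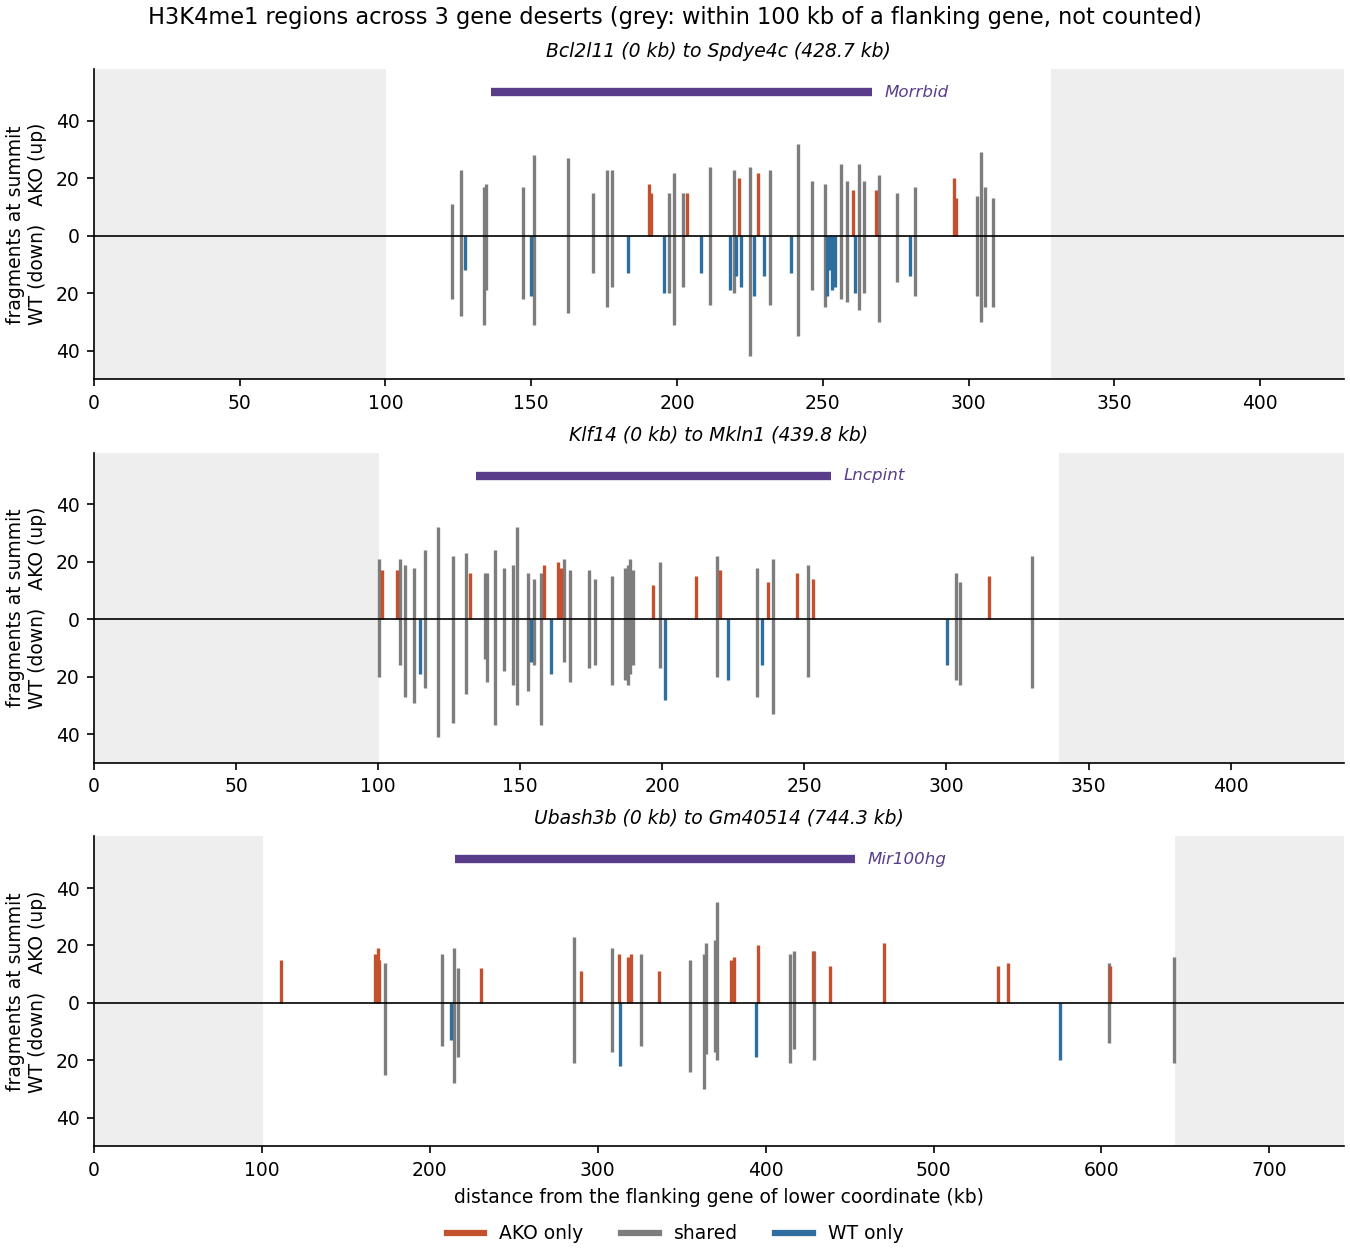
Positions of the regions in 3 deserts, in kb from the flanking gene of lower coordinate, with fragments at the summit upwards for AKO and downwards for WT; colours mark AKO-only, shared and WT-only regions and a bar marks the lncRNA with the most regions. The Bcl2l11 and Klf14 deserts are filled by dense, mostly shared arrays, and AKO-only regions are spread over the Ubash3b desert.

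Regions no farther apart than the distance commonly used to stitch enhancers into super-enhancers were joined, and 457 such clusters had at least 3 regions. They held 2476 regions, or 51.4%, with a median of 4 regions over a median span of 13.0 kb. Of the regions in clusters 45.0% were shared, against 29.1% of those outside. AKO-only regions made up 19.8% inside and 34.4% outside, and WT-only regions 35.2% inside and 36.5% outside. Peaks of both libraries occurred in 436 clusters. The covered length was smaller in AKO in 321 clusters and larger in 136. The median of the AKO to WT length ratios of single clusters was 0.744. Ratios of summed length, a different measure, were 0.789 for all desert peaks and 0.738 for all peaks on chromosomes 1 to 19. A smaller length in AKO was thus also seen over all peaks, and desert regions outside clusters were not summed separately.

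The largest cluster filled 186.6 kb of the Bcl2l11 desert with 57 regions, over 32.8 kb of peaks in AKO and 43.0 kb in WT. The second, in the Klf14 desert, had 49 regions over 153.6 kb, with 36.5 kb covered in AKO and 37.1 kb in WT. A cluster 111 kb from Vegfa, the main angiogenic growth factor, had 19 regions, 14 of them shared, and covered 12.7 kb in AKO and 22.1 kb in WT. A cluster of 27 regions 113 kb from Mn1 covered 11.1 kb in AKO and 22.8 kb in WT, with a median pileup ratio of 0.717 in its shared regions. A cluster of 21 regions between Fam43a and Xxylt1, a xylosyltransferase gene, covered 12.2 kb in AKO and 19.4 kb in WT and held 6 WT-only regions and no AKO-only one. The covered length was smaller in AKO in all 5 of these clusters, as over all desert peaks, though by little in the Klf14 desert.

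Flanking genes were grouped by lists of known roles. Deserts beside 14 of 61 adipocyte genes held 22.2 regions per Mb, beside 103 of 141 developmental transcription factors 12.2, beside 41 of 76 secreted signals 11.1 and beside 29 of 78 extracellular matrix genes 10.8. Over all deserts the density was 7.09 regions per Mb. Deserts beside 79 of 92 neuronal adhesion and synapse genes held only 1.07 regions per Mb, with 0.773 AKO and 0.507 WT peaks per Mb. The adipocyte list thus had the densest deserts and the neuronal list the sparsest. The adipocyte value came from 18 deserts with 6.17 Mb of territory and 137 regions, 55 of them beside Tle3. The neuronal list had 116 deserts with 154 Mb of territory. How far desert length goes with these densities was not tested.

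The lists also differed in which library the single-library regions came from. Beside adipocyte genes 21 regions were AKO only and 54 WT only. AKO-only regions were thus 28.0% of these single-library regions (19.1 to 39.0%), against 42.9% (41.1 to 44.6%) over all deserts. Over all regions on chromosomes 1 to 19, 14803 were AKO only and 28210 WT only, so a WT majority is not particular to this list. Beside neuronal genes 87 were AKO only and 45 WT only, or 65.9% (57.5 to 73.4%). The extracellular matrix list had 56.0% (45.8 to 65.8%), secreted signals 47.0% (39.1 to 55.0%) and developmental transcription factors 40.2% (36.3 to 44.2%). Regions of 1 desert are not independent, so these intervals are too narrow, and the differences between lists were not tested. With equal numbers of strongest peaks the share was 38.0% beside adipocyte genes, 72.4% beside neuronal genes and 52.3% over all deserts. With a −log10 q of at least 5 it was 13.95%, 34.6% and 20.1%, so the order of these 3 sets was as before but AKO-only regions no longer outnumbered WT-only regions beside neuronal genes.

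**Figure D5:**
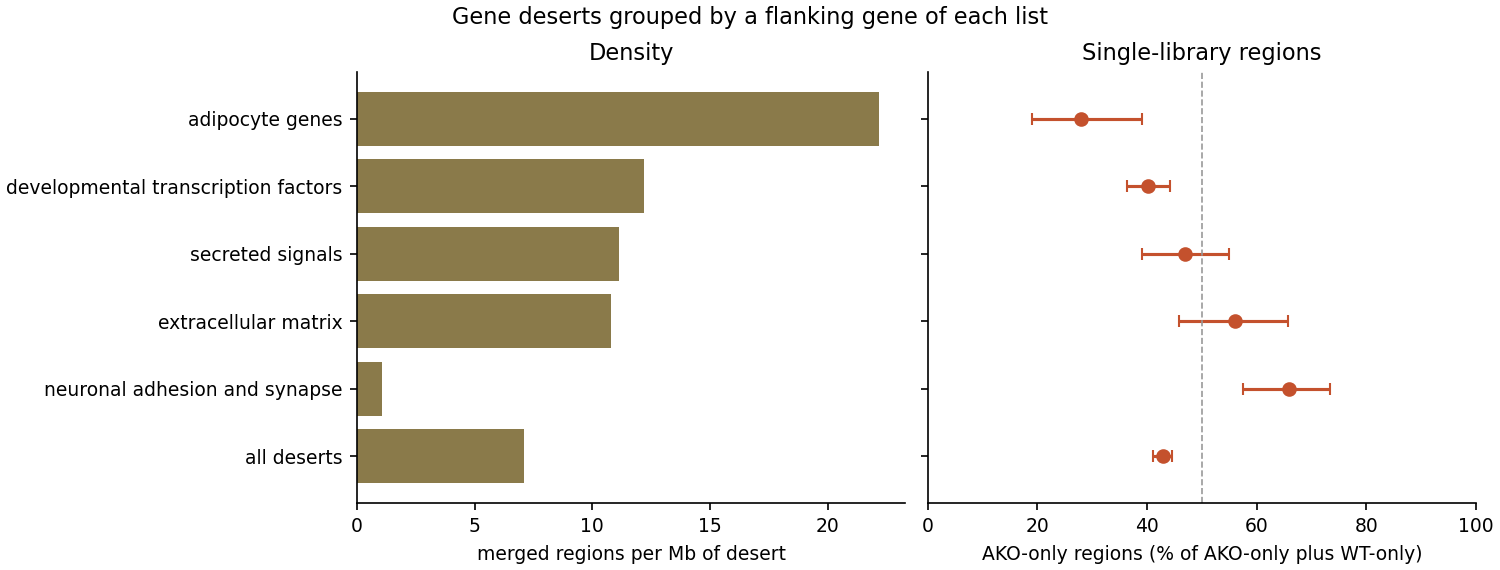
Left, gene-desert regions per Mb of desert for deserts flanked by a gene of each list; right, AKO-only regions as a percentage of AKO-only plus WT-only regions, with 95% Wilson intervals and a dashed line at equal numbers. Adipocyte genes have 22.2 regions per Mb and 28.0% AKO only, and neuronal genes have 1.07 regions per Mb and 65.9% AKO only.

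Within the adipocyte list, Tle3, a corepressor that in mice promotes adipogenesis and opposes the thermogenic programme, had 55 regions in the deserts on its flanks, with 6 AKO only, 22 WT only and 18.01 kb covered in AKO against 32.9 kb in WT. Cebpb, an early transcription factor of adipocyte differentiation, had 12 regions with none AKO only and 7 WT only, and 3.08 kb covered in AKO against 9.57 kb in WT. Trib1 and Trib2, pseudokinases that act on C/EBP proteins, had 3 AKO-only regions each, against 7 and 5 WT-only regions. Irs1, an insulin signalling adaptor, had 5 AKO-only and 3 WT-only regions. The other 9 genes had at most 7 regions each. AKO-only and WT-only regions numbered 1 and 2 beside Irs2, 1 and 4 beside Nrip1, 0 and 1 beside Nr3c1, 0 and 2 beside Ebf2, 2 and 0 beside Npr3 and 0 and 1 beside Ppargc1a. Pdgfra had 1 shared region, and Dio2 and Esrrg had none.

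Among developmental transcription factors, the most regions lay beside Myc (65), Runx1 (47), Klf4 (38), Sox9 (31) and Irx1 (29). AKO-only and WT-only regions numbered 10 and 19 beside Klf4, a pluripotency and epithelial factor, 5 and 16 beside Sox9, a cartilage regulator, and 7 and 10 beside Irx1. Beside the chemokine gene Cxcl12, which led the secreted signals with 33 regions, they numbered 10 and 11. Beside Fgf9 they numbered 6 and 11. The deserts beside Vegfa and Inhbb, an activin subunit, showed the largest differences in length of the 5 leading signals, at 12.7 kb in AKO against 22.1 kb in WT and 3.70 kb against 10.04 kb. Fn1, which encodes fibronectin and led the matrix genes with 21 regions, had 7 AKO-only and 7 WT-only regions. In the neuronal list Epha4, an ephrin receptor, had 12 AKO-only and 7 WT-only regions, Adgrl2, a latrophilin, had 14 and 6, and Epha7 had 5 and 7.

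The tallest shared desert region lay 161.7 kb from Cypt12 (chr3:17785523-17787955), with 46 fragments in AKO and 52 in WT. A region before Gdi2 on chromosome 13 (chr13:3358151-3361619) had 33 fragments in AKO and 55 in WT, the highest WT desert summit. A pair of neighbouring regions between Abhd5, a coactivator of triglyceride hydrolysis, and Topaz1 had 38 and 35 fragments in AKO and 48 and 50 in WT. The second of this pair lay under the promoter window of 9530059O14Rik, an annotated gene that is not protein-coding, and that window held 38 CpG dinucleotides. A region 229.2 kb from Zmiz1 had 41 fragments in AKO and 42 in WT. In each of these 5 shared regions the WT summit was the higher one, in the last by a single fragment. Of the WT desert peaks of 35 fragments or more, 72 of 74 (97.3%) overlapped an AKO peak, against 98.6% of the other WT peaks of that height.

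Regions of a single library were ranked by −log10 q. The first 5 AKO-only regions had 22 to 27 fragments and the first 5 WT-only regions 29 to 33, so they were not the tallest, which had 30 fragments in AKO and 39 in WT. The AKO-only region of highest −log10 q (10.2) lay 206.6 kb from Aebp2 towards Pde3a, a phosphodiesterase (chr6:140884773-140885313), with 27 fragments and the nearest WT peak 10.2 kb away. The next, 104.9 kb from Adpgk with 26 fragments, had a WT peak only 0.534 kb away. The other 3 lay beside Col8a1, Cetn3 and Gdf6. The WT-only region of highest −log10 q (13.3) lay 207.7 kb from Fbxw7, a ubiquitin ligase subunit (chr3:85186603-85187179), with 33 fragments and an AKO peak 11.2 kb away. A WT-only region between Opa1, a mitochondrial fusion gene, and Hes1, a Notch target, had 31 fragments and an AKO peak 0.658 kb away. Of the 10 regions, the one between Tcp10c and Tcte2 was the most isolated, with 29 fragments in WT and the nearest AKO peak 177.3 kb away.

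Among shared regions with at least 20 fragments in the higher library, the lowest AKO to WT pileup ratio was 0.374, at 348.1 kb from Mn1 (chr5:111804693-111805647), with 11 fragments in AKO and 30 in WT. A region 183.9 kb from Klf4 had 13 fragments in AKO and 34 in WT, and one beside Septin9 had 15 in AKO and 36 in WT. The highest ratio was 2.04, 152 kb from Camk1g (chr1:193522164-193522531), with 30 fragments in AKO and 15 in WT. A region 473.6 kb from Id4, an inhibitor of helix-loop-helix factors, had 33 in AKO and 17 in WT, and one 125.8 kb from Cdkn3 towards Bmp4 had 32 in AKO and 17 in WT.

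The peaks farthest from protein-coding genes were mostly small. A shared region 1761.3 kb from G6pd2 towards Pcdh7 had 14 fragments in AKO and 19 in WT. AKO-only regions 1658.5 kb from Pcdh10 and 1652.1 kb from Igfbp7 had 14 and 16 fragments. The most remote WT peak, 2187.8 kb from Pik3c3, had 20 fragments, and the nearest AKO peak was 2322 kb away. An exception was a shared region 1393.4 kb from Tenm3, a teneurin adhesion gene (chr8:50915201-50917273), which had 29 fragments in AKO and 38 in WT over 2073 bp. Both protocadherin genes and Tenm3 belong to the neuronal adhesion list.

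Deserts with at least 10 single-library regions were also ranked by the share that was AKO only, a ranking chosen after the values were seen. Besides the Ubash3b desert, the most AKO-tilted were those between Jag1, a Notch ligand, and Btbd3 with 9 AKO-only and 1 WT-only regions, Nmbr and Cited2 with 9 and 2, Wac and Fzd8 with 12 and 3, and En1 and Insig2 with 10 and 3. The most WT-tilted were those beside Foxl1 with 1 AKO-only and 13 WT-only regions, between Rtl1 and Dio3 with 1 and 13, Wdr11 and Fgfr2 with 1 and 9, Zfp507 and Gm36722 with 1 and 9, and Supt3 and Cdc5l with 2 and 13. The Rtl1 to Dio3 desert belongs to an imprinted locus with a large microRNA array, and its covered length was 10.2 kb in AKO and 19.5 kb in WT.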

How the data were processed

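H3K4me1 ChIP-seq of primary adipocytes was available as 1 AKO and 1 WT peak list. The input has no peak list here and enters only through the authors' values. The input is labelled wild type although its title ties it to the AKO library, and per the file headers it served both calls. The submitters' processing notes name MACS2 2.2.1 and Bowtie2 2.2.5, with FastQC 0.11.3 and bcl2fastq, and the build mm10, while the file headers name MACS 2.1.1.20160309. Per the file headers, narrow peaks were called per library at a q-value cutoff of 0.05, without pooling. Narrow calling can split broad H3K4me1 domains into several peaks. The deposited pileup signal at the summit was scaled by the authors to the input's tag number. Divided by the scale factor, 0.647 for AKO and 0.635 for WT, it was a whole number within 0.01 in every peak, here called fragments at the summit. The authors' fold enrichment is a ratio to local background, and the authors' −log10 p and −log10 q values are as deposited by MACS. Coordinates were used as 1-based mm10 positions.

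Genes, promoter windows and microRNAs came from RefSeq tables of GRCm38.p6, with 20665 protein-coding genes on chromosomes 1 to 19. Distances were measured from peak midpoints to gene bodies. Peaks on the X chromosome and on contigs or Y (6 in AKO and 8 in WT) were left out of the comparisons. Peaks overlapping by 1 bp were merged, and regions at most 12.5 kb apart, the usual stitching distance for super-enhancers, formed a cluster where there were at least 3. A desert is the gap between the flanking protein-coding genes. Tables were made with pandas 2.3.3, scipy 1.17.1 and numpy 2.4.6 in Python 3.11.15, and the distance, overlap and cluster steps were tested on simulated data. Precision is limited by the smallest summits of 10 fragments.

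Named genes flank the 10 deserts with the most regions, the 5 clusters with the most covered length, the 5 tallest shared regions (the 0.1% highest pileup left out), the 5 strongest regions of each library alone, the 5 lowest and 5 highest ratios among shared regions with at least 20 fragments in the higher library, and the 3 peaks farthest from genes per library, with up to 5 leading genes per list. The members and lists were chosen with earlier results of these data known. The adipocyte genes beyond the first 5 and the most tilted deserts were named after their values were seen.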

Additional observations from a re-analysis of the deposited data

Results flagged for a closer look

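The X chromosome was outside the rule, which covers chromosomes 1 to 19, and it held H3K4me1 peaks more than 100 kb from protein-coding genes in both libraries: 8 of 161 X peaks in AKO (4.97%) and 34 of 390 in WT (8.72%). The AKO to WT number ratio was 0.235 for these X desert peaks and 0.413 for all X peaks, against 0.897 for desert peaks and 0.868 for all peaks on chromosomes 1 to 19. In each library 4 of them had a partner. Both libraries were labelled male, and no cause of the lower X numbers in AKO was tested.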

How the results depend on the processing

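No result here has a replicate, so no library could be left out. Most gene-desert regions of a single library had fewer than 20 fragments, and the effect of sequencing depth was not tested. No paired analysis was possible because each genotype has 1 library. Values below give AKO before WT for peaks, their percentage of all peaks and sharing, and then AKO-only, WT-only and shared regions. Above 50 kb these were 5826 and 6711 peaks, 9.37% and 9.37%, sharing of 64.6% and 53.8%, 2061, 3101 and 3450 regions, and 859 clusters. Above 200 kb they were 1261 and 1321 peaks, 2.03% and 1.84%, sharing of 51.9% and 48.5%, 607, 680 and 622 regions, 157 clusters and a median ratio of 0.934. Measured from any annotated gene they were 305 and 272 peaks, 0.490% and 0.380%, sharing of 42.6% and 48.2%, 175, 141 and 127 regions, 33 clusters and a ratio of 0.947, with more AKO than WT peaks. At a −log10 q of at least 5 they were 674 and 1408 peaks, 3.23% and 3.94%, sharing of 63.1% and 29.8%, 249, 988 and 407 regions, and 125 clusters. At a fold enrichment of at least 4 the percentages were 4.81% and 4.76%, sharing 56.7% and 46.5%, with 1175 shared regions. With equal numbers of strongest peaks sharing was 54.2% and 55.5% and the ratio 0.883. With peaks within 1 kb joined the percentages were 6.12% and 5.82%, with WT sharing of 54.8%. Requiring an overlap of at least 50% of the peak gave sharing of 52.7% and 40.3%, and accepting a peak within 1 kb gave 68.8% and 63.8%. By fold enrichment the ratio was 0.925. Divided by the median of all shared regions, a setting added after seeing the data, it was 1.05, on the other side of 1, by the construction of that setting. Among these results 37 other values stayed within the limits set for no change. The cause of the other moves was not tested, and several settings also admit different numbers of peaks.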
